A study of Mus musculus with 24 samples.

Results

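The fibroblast growth factor (FGF) genes described here are 5 ligands (Fgf1, Fgf2, Fgf7, Fgf10 and Fgf18), the 4 receptor tyrosine kinases (Fgfr1 to Fgfr4) and the binding protein Fgfbp3. They were taken by gene name from all non-control probes of the array, which gave 10 genes of 36591 named genes and 24 probes of 56605. All 10 genes had at least 1 probe above the filter on dim signal and were among the 22382 genes tested. FGFs are secreted proteins that bind heparan sulphate chains on the cell surface and in the matrix and, together with these chains, bring receptor pairs into contact. In the mammary gland Fgf7 and Fgf10 are made by the stroma of the fat pad and act on the epithelium through the epithelial splice form of Fgfr2, a route needed for the mammary buds and for ductal growth. SOCS2, suppressor of cytokine signalling 2, is an SH2-domain protein best known as a brake on growth hormone receptor signalling.

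The RNA came from the number 4 mammary gland, lymph node removed, of female C57BL/6 mice. Knock-in mice carried the R96C change in SOCS2 on both copies, in the whole animal. Virgins were taken at 8 weeks of age, 7 wild-type and 7 knock-in, and pregnant mice on day 18 of gestation, 5 of each genotype, with 1 animal per array. The age of the pregnant mice was not given in the sources used here, so pregnancy and age cannot be told apart, nor was it given whether wild-type mice were littermates. The design asks how FGF genes differed between the virgin gland and late pregnancy, and whether they differed between the genotypes.

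Each level below is the log2 signal of 1 probe relative to the 75th percentile of its array, so a level of -2 is 4-fold below that percentile, and levels of different probes were not compared. For a gene with several probes, the brightest that passed the filter stands for the gene. Of the 24 arrays, that of knock-in virgin 376 had an average net negative-control signal of 332 and 57003 spots well above background. That of knock-in day-18 mouse 184 had 41.4 and 43055. The other 22 arrays had 19.4 to 31.8 and 33374 to 39174. Knock-in virgin 198 had the lowest mean level of 12 luminal epithelial markers, -2.89 against 0.98 to 2.23 in the other knock-in virgins. Results that rest on these 3 arrays are given with and without them. All 7 milk protein genes were higher at day 18 in both genotypes, and the point mutation is not visible to a probe for Socs2 RNA, so the arrays do not check the genotype labels.

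The probes for Fgf2 and Fgf10 are shown because these ligands are of 1 family and both were lower at day 18, so a reader can see how alike the probes are. The probe standing for Fgf2 lies at chr3:37303539-37303598 and an Fgf10 probe lies at chr13:119577931-119577990 (mm9, positions from the files). Set side by side without gaps, 29 of 60 bases were identical, in capitals below, and the longest identical run was 5 bases.
Fgf2 probe: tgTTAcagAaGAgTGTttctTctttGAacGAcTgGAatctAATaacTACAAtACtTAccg
Fgf10 probe: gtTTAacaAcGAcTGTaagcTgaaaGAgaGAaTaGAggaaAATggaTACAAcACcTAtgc
The pair of Fgfr2 probes is shown because 1 was measured on every day-18 array and the other was near background there. The probe standing for the gene lies at chr7:137307473-137307532 and the other at chr7:137385966-137386025 (mm9).
Fgfr2 probe A_55_P2094881: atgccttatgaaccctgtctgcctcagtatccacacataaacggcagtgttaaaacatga
Fgfr2 probe A_52_P158800: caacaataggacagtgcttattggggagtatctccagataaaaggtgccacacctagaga
The files assign each of these probes to its gene, and exon or intron positions were not assigned here.

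Late pregnancy came with lower RNA of 4 of the 5 ligands and 3 of the 4 receptors. In wild-type glands 1 member was higher (20.9% of all genes tested were) and 7 were lower (20.9% of all genes), and 2 did not pass the test. In knock-in glands 1 was higher (22.9% of all genes) and 7 were lower (20.3% of all genes), and 2 did not pass. Calls are adjusted p under 0.05 in limma, with Benjamini-Hochberg adjustment over all 22382 genes. Fgf2, among the 7 lower in each genotype, passed the filter only through the virgin groups, so its call is not taken as support. The median member differed by -1.52 (log2) in wild-type and -1.24 in knock-in glands, against 0.01 and 0.05 over all genes. The members were chosen with earlier results of these data known, so these counts and medians are a description. The stage comparisons of the genotypes share no arrays, but they share 1 estimate of the spread. In bulk tissue, fewer cells of a type and less RNA per cell cannot be told apart.

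**Figure D1:**
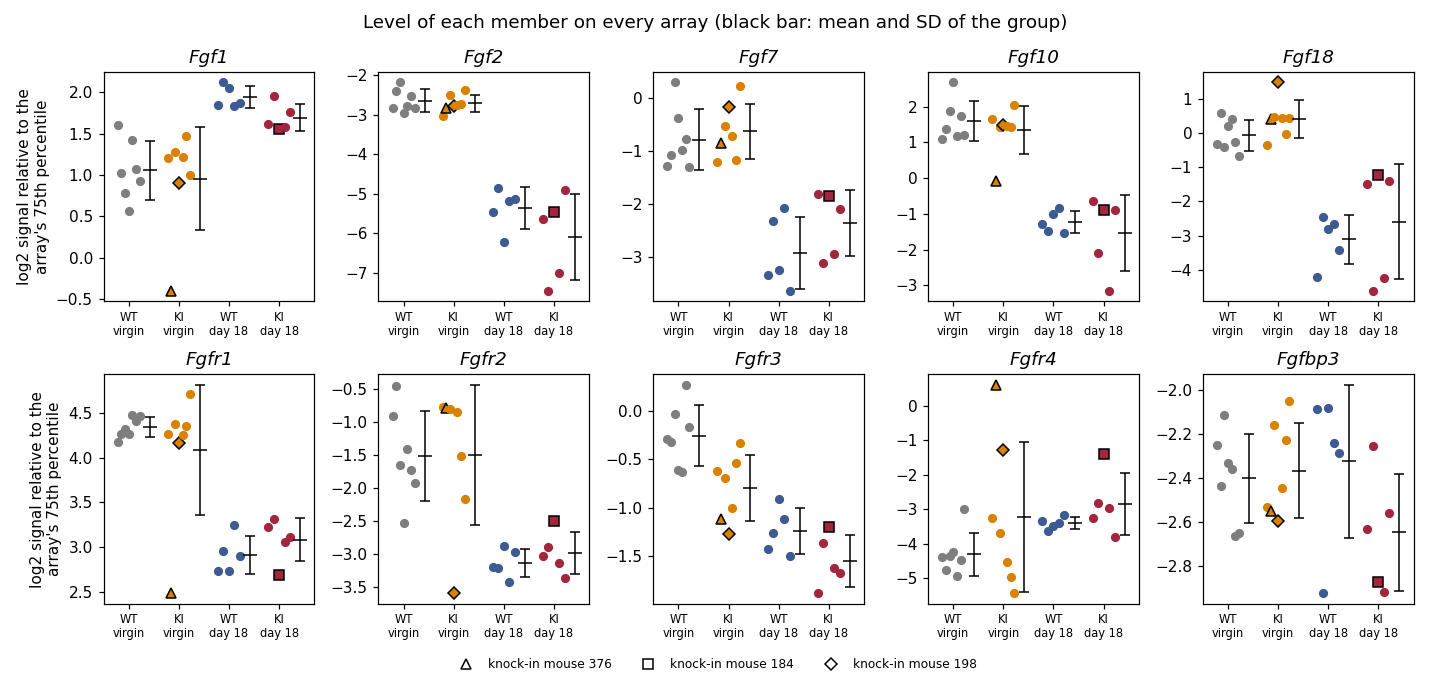
Log2 signal of each member on every array, relative to the array's 75th percentile, for wild-type (WT) and knock-in (KI) glands; each point is 1 mouse, the black mark is the group mean with its SD, and black-edged triangles, squares and diamonds mark knock-in mice 376, 184 and 198. Fgf1, Fgf2, Fgf7, Fgf10 and Fgf18 separate the stages without overlap in both genotypes, whereas Fgfr4 and Fgfbp3 overlap. The share of all genes whose stages do not overlap was not counted. Fgf1 is higher at day 18 on this scale, but its stage difference was -0.03 and -0.10 with spike-in scaling.

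Fgf10, the stromal ligand of epithelial Fgfr2, was lower at day 18 in both genotypes. Its level ran from 1.11 to 2.69 (median 1.37) in wild-type virgins and was -1.55, -1.49, -1.27, -1.01 and -0.85 in the 5 wild-type day-18 mice. In knock-in virgins it ran from -0.09 to 2.06 (median 1.46), and at day 18 it was -3.15, -2.10, -0.89, -0.89 and -0.64. The stages did not overlap in either genotype, although knock-in virgin 376, at -0.09, stood far below the other 6. The share of all genes whose stages did not overlap was not counted, here or for the members below. The log2 difference was -2.83 ± 0.39 (SE; 7.12-fold lower, adjusted p 4.15e-06) in wild-type and -2.88 ± 0.39 (7.39-fold lower, adjusted p 2.83e-06) in knock-in glands, and -3.30 in knock-in glands without mice 376, 198 and 184. The Fgf10 probe shown above was well above background on only 1 of 5 wild-type and 2 of 5 knock-in day-18 arrays, so the size of its difference was not measured. It was lower and passed the test with the processed signals, but with normexp background correction it read -0.38 and -0.47 and did not pass (adjusted p 0.42 and 0.33 over all probes). This second probe passed the filter only through the virgin groups.

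Fgf7, also called keratinocyte growth factor, is the other mesenchymal ligand of that receptor form. Wild-type virgins had levels from -1.31 to 0.30 (median -0.98), and the wild-type day-18 mice had -3.64, -3.33, -3.25, -2.31 and -2.08. Knock-in virgins had -1.20 to 0.23 (median -0.71), and knock-in day-18 mice had -3.11, -2.93, -2.09, -1.85 and -1.81. Again no day-18 mouse reached the lowest virgin of its genotype. The difference was -2.14 ± 0.34 (4.40-fold lower, adjusted p 2.23e-05) and -1.73 ± 0.34 (3.32-fold lower, adjusted p 2.17e-04), from a single probe.

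Fgf2 is a heparin-binding ligand that leaves cells without a classical signal peptide. It was tightly grouped in virgins, from -2.95 to -2.18 (median -2.77) in wild-type and from -3.03 to -2.38 (median -2.75) in knock-in mice. At day 18 it was -6.22, -5.45, -5.17, -5.12 and -4.84 in wild-type mice and -7.45, -7.01, -5.63, -5.45 and -4.91 in knock-in mice. All 10 day-18 mice were thus below all 14 virgins, but the probe was well above background on only 2 of the 5 wild-type and 1 of the 5 knock-in day-18 arrays, so the direction was measured and the size of the fall was not. The fitted difference was -2.72 ± 0.33 (adjusted p 6.95e-07) in wild-type and -3.38 ± 0.33 (adjusted p 3.17e-08) in knock-in glands, and -3.58 in knock-in glands without mice 376, 198 and 184. The probe passed the filter only through the virgin groups, where it is high, so these p-values are not taken as support. No fold is given, since most day-18 values lie near background. With normexp background correction it was -0.76 and -0.71 and still passed the test. A further Fgf2 probe was well above background on 1 of 5 day-18 arrays in each genotype, in knock-in mice that of mouse 184, and with normexp correction it did not pass the test (adjusted p 0.64 and 0.45 over all probes). This further probe also passed the filter only through the virgin groups and adds no measured size.

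Fgf18, which signals mainly to the mesenchymal receptor forms and is known from bone and lung growth, was also lower at day 18. Wild-type virgins ran from -0.66 to 0.57 (median -0.27) and wild-type day-18 mice had -4.23, -3.43, -2.80, -2.67 and -2.46. Knock-in virgins ran from -0.34 to 1.48 (median 0.42), and knock-in day-18 mice had -4.61, -4.23, -1.50, -1.40 and -1.23. The knock-in day-18 values fell into 2 low and 3 higher mice, all below every virgin. The difference was -3.04 ± 0.50 (8.25-fold lower, adjusted p 4.07e-05) in wild-type and -3.00 ± 0.50 (7.99-fold lower, adjusted p 4.57e-05) in knock-in glands.

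The same 2 knock-in day-18 mice, 210 and 239, were the lowest of their group for Fgf2, Fgf7, Fgf10 and Fgf18, a pattern seen on looking at the values and not tested. Their mean level of 12 fibroblast and matrix markers was also the lowest of the group, 2.17 and 2.13 against 3.10, 3.15 and 3.37 in the other 3 mice. The same mice were lowest for macrophage markers, 2.0 and 1.84 against 2.85 to 3.21, for endothelial markers, 0.42 and 0.16 against 0.56 to 0.78, and for white adipocyte markers, 4.07 and 3.03 against 4.14 to 4.51. Luminal epithelial markers were the highest of the group in these mice, 4.09 and 4.35 against 3.77 to 3.85. So were basal and myoepithelial markers, 3.46 and 3.66 against 3.11 to 3.27. Across stages all 12 fibroblast and matrix markers were lower at day 18 in both genotypes, with a median of -1.54 in wild-type and -1.47 in knock-in glands. Their mean level ran from 4.41 to 4.98 in wild-type virgins and from 2.32 to 3.13 in wild-type day-18 mice, and from 3.02 to 4.98 and from 2.13 to 3.37 in knock-in mice. Of the white adipocyte markers 6 of 10 were lower in wild-type and 7 of 10 in knock-in glands, of the endothelial markers 5 and 7 of 10, and of the macrophage markers 7 of 8 in both. The part of these cell-type levels in the ligand results was not tested.

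Fgf1, the ligand able to bind all FGF receptors, went the other way. It ran from 0.57 to 1.60 (median 1.02) in wild-type virgins and was 1.84, 1.85, 1.87, 2.05 and 2.12 at day 18. In knock-in mice it ran from -0.40 to 1.47 (median 1.21) and then was 1.55, 1.58, 1.62, 1.76 and 1.95. The stages did not overlap. The difference was 0.89 ± 0.24 (1.85-fold higher, adjusted p 0.0044) and 0.74 ± 0.24 (1.67-fold higher, adjusted p 0.015), and 0.49 in knock-in glands without mice 376, 198 and 184. This call depends on scaling: with the array's spike-in controls as the reference, Fgf1 was at -0.03 and -0.10, when the median of all genes was at -0.91 and -0.78. A second, dimmer Fgf1 probe read 0.30 ± 0.18 in wild-type and -0.23 ± 0.18 in knock-in glands and passed the test in neither.

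**Figure D2:**
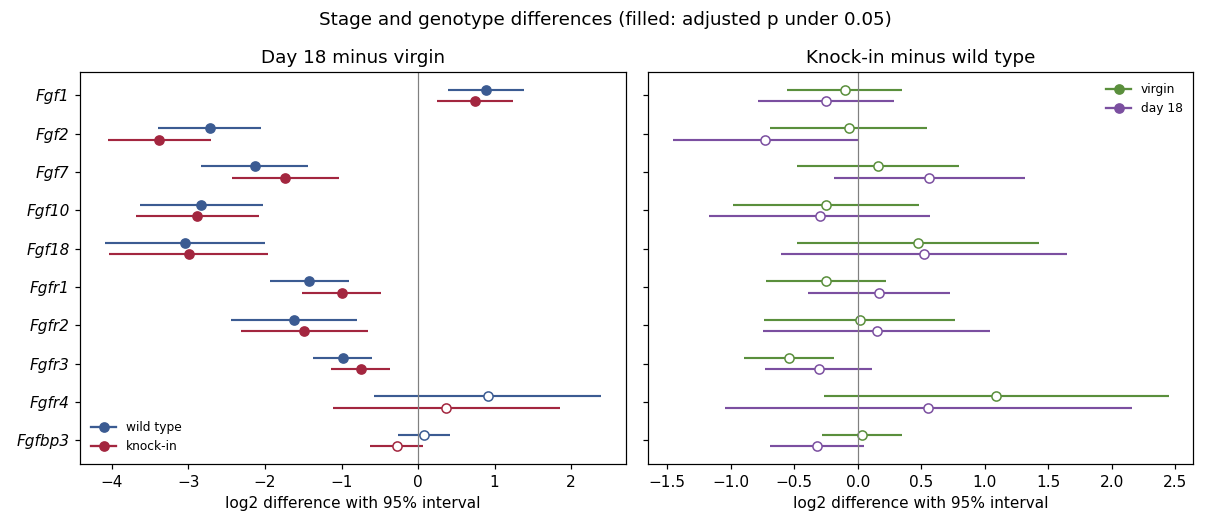
Log2 difference of each member between stages (left) and between genotypes (right) with its 95% interval from limma; filled circles have an adjusted p under 0.05. Fgf1 lies to the right of 0 in both genotypes with 75th-percentile scaling (at or just below 0 with spike-in scaling), 7 members lie to the left, and no genotype difference is filled.

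Among the receptors, Fgfr1, a broadly expressed receptor best known from mesenchymal tissue, was lower at day 18. Its level was 4.17 to 4.47 (median 4.32) in wild-type virgins and 2.73, 2.74, 2.90, 2.96 and 3.25 in wild-type day-18 mice. Knock-in virgins were at 2.49 to 4.71 (median 4.26) and knock-in day-18 mice at 2.69, 3.07, 3.12, 3.23 and 3.32. The wild-type stages were far apart, and in knock-in mice only virgin 376, at 2.49, overlapped with day 18. The difference was -1.42 ± 0.25 (2.67-fold lower, adjusted p 8.21e-05) and -1.0 ± 0.25 (2.0-fold lower, adjusted p 0.0023), and -1.21 in knock-in glands without the 3 arrays. All 4 Fgfr1 probes were lower in both genotypes, from -1.98 to -1.42 in wild-type and from -1.54 to -1.0 in knock-in glands, each with an adjusted p under 0.05 over all probes.

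Fgfr2, the receptor of Fgf7 and Fgf10, varied widely among virgins. It ran from -2.54 to -0.46 (median -1.65) in wild-type virgins and was -3.42, -3.21, -3.20, -2.97 and -2.88 in wild-type day-18 mice. It ran from -3.60 to -0.78 (median -0.85) in knock-in virgins and was -3.37, -3.14, -3.03, -2.89 and -2.51 in knock-in day-18 mice. Only virgin 198 overlapped with day 18. The difference was -1.62 ± 0.40 (3.07-fold lower, adjusted p 0.0021) and -1.48 ± 0.40 (2.80-fold lower, adjusted p 0.0041), and -1.88 in knock-in glands without the 3 arrays. The second Fgfr2 probe shown above was well above background on all 7 wild-type virgin arrays and on 0 of 5 wild-type day-18 arrays. That gives at least a 2.38-fold lower value there, a bound set against the dimmest signals called well above background. This probe passed the filter only through the virgin groups, where it is high, so its test between stages is not taken as support.

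The lower Fgfr2 at day 18 stood beside higher epithelial markers. Of 12 luminal markers 7 were higher in wild-type and 9 in knock-in glands and 0 were lower in either, with medians of 1.84 and 2.61. Their mean level ran from 0.49 to 2.74 in wild-type virgins and from 3.66 to 4.11 in wild-type day-18 mice. Among virgins the lowest Fgfr2 of each genotype was in the mouse with the lowest luminal level. The other wild-type virgins did not follow that order, and 318, with the highest luminal level (2.74), had Fgfr2 at -1.73. Wild-type virgin 317 had Fgfr2 at -2.54 and the luminal markers at 0.49, and knock-in virgin 198 had -3.60 and -2.89. Knock-in virgin 376 had the next lowest luminal level of its group (0.98) with Fgfr2 at -0.79, among the highest. On its array an Fgfr3 probe near background on all wild-type arrays read -0.80, so this Fgfr2 value may not be a measured level. Virgins 384 and 313 had nearly equal luminal levels, 1.62 and 1.64, with Fgfr2 at -2.16 and -1.52. The part of epithelial content in the Fgfr2 result was not tested.

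**Figure D3:**
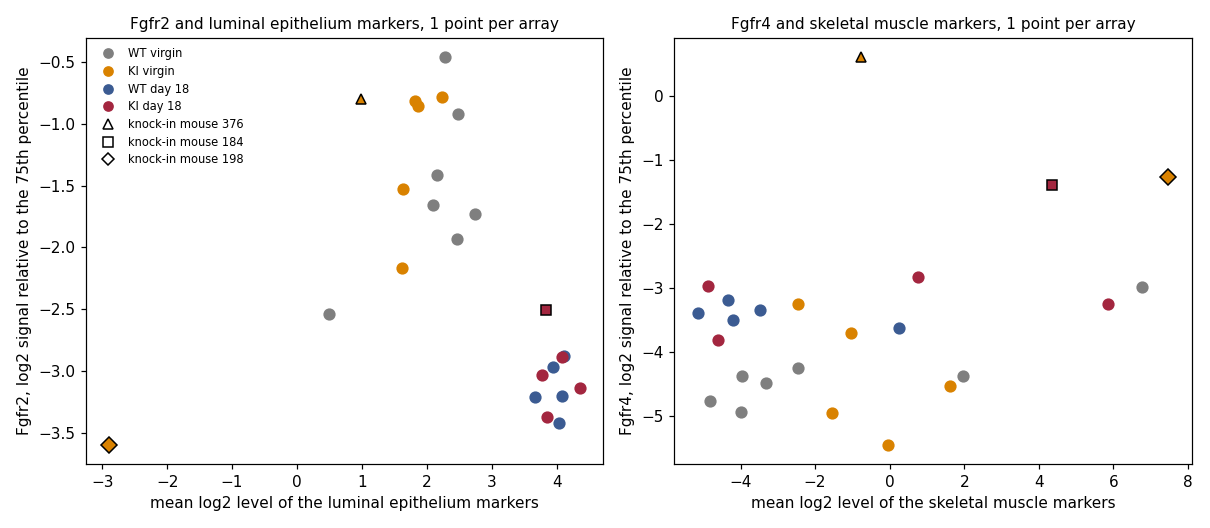
Fgfr2 against the mean log2 level of 12 luminal epithelial markers (left) and Fgfr4 against that of 8 skeletal muscle markers (right), 1 point per array, coloured by group. Day-18 arrays lie at high luminal levels (3.66 to 4.35) and low Fgfr2 (-3.42 to -2.51), and the virgin with the lowest luminal level, knock-in 198, has the lowest Fgfr2 of all.

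Fgfr3, a receptor best known for restraining bone growth, was -0.64 to 0.27 (median -0.29) in wild-type virgins and -1.50, -1.43, -1.26, -1.11 and -0.91 at day 18. It was -1.28 to -0.33 (median -0.70) in knock-in virgins and -1.89, -1.68, -1.62, -1.37 and -1.20 at day 18. The stages were apart in wild-type mice, and in knock-in mice virgin 198 (-1.28) lay just below the highest day-18 mouse, 184 (-1.20). Without mice 376, 198 and 184 the knock-in stages were apart, at -1.01 to -0.33 (mean -0.64) and -1.89 to -1.37 (mean -1.64). The difference was -0.99 ± 0.19 (1.98-fold lower, adjusted p 1.92e-04) and -0.75 ± 0.19 (1.68-fold lower, adjusted p 0.0024). Neither call held under quantile normalization, where the difference was -0.89 (adjusted p 0.13) and -0.28 (adjusted p 0.67), nor under median scaling or with the mean of the Fgfr3 probes. A dim second probe read -0.79 ± 0.67 and -0.66 ± 0.67 and passed the test in neither genotype.

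Fgfr4, known for bile acid control in liver and also present in muscle precursors, did not pass the test. Wild-type virgins had -4.94 to -2.99 (median -4.38) and wild-type day-18 mice -3.63, -3.50, -3.39, -3.34 and -3.18. Knock-in virgins had -5.44 to 0.60 (median -3.71) and knock-in day-18 mice -3.82, -3.25, -2.96, -2.84 and -1.39. In wild-type mice the overlap rested on virgin 320 alone (-2.99), since the other 6 virgins, at -4.94 to -4.26, were below every day-18 mouse. Knock-in virgins spread on both sides of the day-18 values. The difference was 0.91 ± 0.72 (adjusted p 0.34) in wild-type and 0.37 ± 0.72 (adjusted p 0.72) in knock-in glands. Without mice 376, 198 and 184 it was 0.91 (adjusted p 0.026) and 1.16 (adjusted p 0.015), and with spike-in scaling -0.01 and -0.46, neither called. The second Fgfr4 probe, whose window overlaps the first one's, was well above background on only 4 of 7 virgin arrays in each genotype and on all day-18 arrays, so the size of its difference was not measured. It was higher at day 18 in wild-type glands (adjusted p 0.013 over all probes) and did not pass the test in knock-in glands (adjusted p 0.19, or 3.89e-04 without the 3 arrays). This probe passed the filter only through the day-18 groups, where it is high, so these p-values are not taken as support. The highest wild-type virgin, 320, had skeletal muscle markers at 6.78, against -4.81 to 1.98 in the other 6, and knock-in virgin 198, with Fgfr4 at -1.28, had 7.47. The highest Fgfr4 of all, 0.60 in knock-in virgin 376, came with muscle markers at -0.76, inside the range of its group. That array had the raised negative-control signal of 332, and an Fgf10 probe near background on all wild-type arrays read -0.44 there. Its Fgfr4 value is therefore not taken as a measured level. Knock-in day-18 mouse 211 had muscle markers at 5.84 with Fgfr4 at -3.25, within its group. Mouse 184 had muscle markers at 4.34 with the highest Fgfr4 of that group, -1.39, on the array with a negative-control signal of 41.4. The part of muscle in these values was not tested.

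Fgfbp3, a secreted carrier that frees FGFs from heparan sulphate, had a narrow range in every group. It was -2.66 to -2.11 (median -2.36) in wild-type virgins and -2.92, -2.29, -2.24, -2.09 and -2.09 at day 18. It was -2.60 to -2.05 (median -2.45) in knock-in virgins and -2.92, -2.87, -2.63, -2.56 and -2.26 at day 18. The groups overlapped, and the stage difference was 0.08 (95% interval -0.27 to 0.42, adjusted p 0.75) in wild-type and -0.28 (-0.62 to 0.06, adjusted p 0.18) in knock-in glands; with spike-in scaling it was -0.84 and -1.11, and both passed the test (adjusted p 0.0039 and 4.14e-04).

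**Figure D4:**
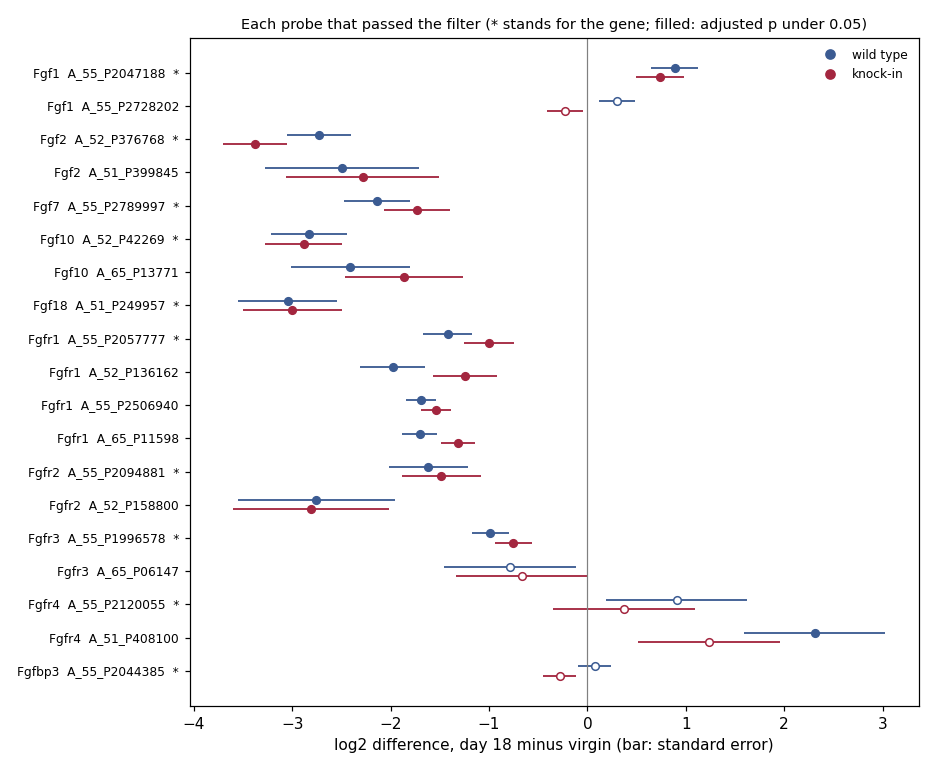
Log2 difference between day 18 and virgin for each of the 19 member probes that passed the filter, with its standard error, in wild-type (blue) and knock-in (red) glands; filled points have an adjusted p under 0.05 over all probes. All Fgfr1, Fgfr2, Fgf2 and Fgf10 probes lie left of 0, although both Fgf2 probes and the second Fgf10 and Fgfr2 probes were near background on most day-18 arrays, whereas the probes of Fgf1, Fgfr3 and Fgfr4 differ in whether they pass the test, and the brighter Fgf1 probe moves to -0.03 and -0.10 with spike-in scaling.

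Every slide held arrays of all 4 groups, and the 8 members called kept their direction within each of the 3 slides in both genotypes. These members were called on the same arrays, so the split by slide is a description and not a further test. The share of all called genes that kept their direction was not counted. Within slides Fgf10 ran from -3.66 to -2.25 in wild-type and from -3.03 to -2.38 in knock-in glands. Fgfr1 ran from -1.49 to -1.37 and from -1.30 to -0.61. Fgf1 ran from 0.71 to 1.31 and from 0.38 to 0.98.

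The knock-in allele gave no call among the members at either stage. The background was 0% of 22382 genes in virgins, 0% at day 18 and 0% for the difference between the stage effects, with 802, 441 and 228 genes at an unadjusted p under 0.05 in limma. In virgins 1 member, Fgfr3, had such a p (0.0044, adjusted p 0.70). It was lower in knock-in virgins by 0.54 on the log2 scale (95% interval -0.90 to -0.19), the groups overlapped, and without mice 376, 198 and 184 the value was -0.39. The mean over the Fgfr3 probes gave a log2 difference of 0.0036. The dim second Fgfr3 probe read 0.55 ± 0.61, with knock-in virgin 376 at -0.37 and the other knock-in virgins at -5.53 to -4.31. At day 18 the smallest p was that of Fgf2 (0.050, adjusted p 1.00), with a difference of -0.73 (-1.46 to 0.0016) from a probe near background, and of 0.65 after quantile normalization and 0.04 with the mean of the Fgf2 probes. All genotype groups overlapped for all 10 members, and the share of all genes with such overlap was not counted.

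For Fgf10 the knock-in difference was -0.25 (-0.98 to 0.48) in virgins and -0.30 (-1.17 to 0.57) at day 18, and for Fgf7 it was 0.16 (-0.47 to 0.79) and 0.56 (-0.19 to 1.31). For Fgfr1 it was -0.25 (-0.73 to 0.22) and 0.17 (-0.39 to 0.72). The intervals hold differences in both directions, so the absence of a call does not show that the genotypes had equal levels. The stage effects of the genotypes differed by -0.65 (Fgf2) to 0.42 (Fgfr1), all with an adjusted p of 1.00.

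In the lists below, the first value is that in wild-type and the second that in knock-in glands, and "rose" or "fell" means an adjusted p under 0.05 in limma. The counts stand beside 20.9% of all genes called higher and 20.9% lower in wild-type glands, and 22.9% and 20.3% in knock-in glands. Of 17 further FGF ligands only 9 passed the filter, and in wild-type glands 2 were higher, 3 lower and 4 not called (knock-in 2, 4 and 3). Fgf9, a secreted ligand, fell, with fitted differences of -2.24 and -1.79 on the log2 scale. It was well above background on only 3 of 5 day-18 arrays in each genotype, so the size of its fall was not measured. Its probe passed the filter only through the virgin groups. Fgf11, an intracellular FGF homologue, fell by 2.09 and 1.93, and Fgf13, of the same intracellular branch, fell by 1.24 and 1.19. Fgf6, known from muscle, rose by 2.01 and 1.88, and Fgf20 rose by 0.97 and 0.80. The median of the list was -1.12 and -0.42.

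Of 20 co-receptors and extracellular modulators 19 were tested, and 2 were higher, 10 lower and 7 not called in each genotype, with medians of -0.81 and -0.88. Klb, a co-receptor of endocrine FGFs, fell by 2.81 and 3.11, whereas the related Kl was among the genes called higher in both genotypes. Flrt2, an FGFR-binding membrane protein, fell by 2.62 and 2.17, and the glypican Gpc3 by 2.08 and 2.21. The syndecan Sdc3 fell by 1.73 and 1.55, and Hspg2, which encodes the basement membrane proteoglycan perlecan, by 1.22 and 1.04.

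Of 17 genes of heparan sulphate synthesis and editing 4 were higher, 6 lower and 7 not called in each genotype, with medians of -0.15 and -0.16, and the share called higher was near that of all genes. The sulphotransferases Hs3st3b1 and Hs6st1 rose by 3.45 and 2.41 in wild-type glands and by 3.58 and 2.65 in knock-in glands. Extl1, a glycosyltransferase of chain elongation, rose by 3.85 and 3.62, and the N-sulphating enzyme Ndst1 by 1.36 and 1.77. Hpse, the heparan sulphate cleaving heparanase, fell by 2.83 and 2.51. For Hs6st1 the virgin levels of 2.29 to 2.49 in wild-type mice did not reach the day-18 levels of 4.44 to 5.17.

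Of 20 intracellular transducers 4 were higher, 1 lower and 15 not called in wild-type glands and 6, 0 and 14 in knock-in glands, with medians of 0.02 and 0.26. Akt1, a kinase downstream of phosphoinositide 3-kinase, rose by 1.45 and 1.73, and the adaptor Gab1 rose by 0.91 and 0.76. Pik3r1 rose by 0.63 and 1.43, and Map2k2 by 0.62 and 0.64. Plcg1, a phospholipase bound by active FGF receptors, was at -0.59 (called) and -0.53 (not called).

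Of 20 feedback inhibitors and FGF-induced targets 18 were tested. In wild-type glands 3 were higher, 11 lower and 4 not called, and in knock-in glands 4 were higher, 8 lower and 6 not called, with medians of -0.70 and -0.44. The phosphatase Dusp10 fell by 2.66 and 2.60, the transcription factor Etv1 by 1.72 and 1.76, and the Ras pathway inhibitor Spred3 by 1.65 and 1.70. Myc and Il17rd, the latter an inhibitor of FGF signalling also called Sef, rose by 1.50 and 1.18 in wild-type and by 1.69 and 0.91 in knock-in glands. These targets answer to other pathways too. No gene of the 5 lists was called between genotypes at either stage, nor for the difference of the stage effects.

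**Figure D5:**
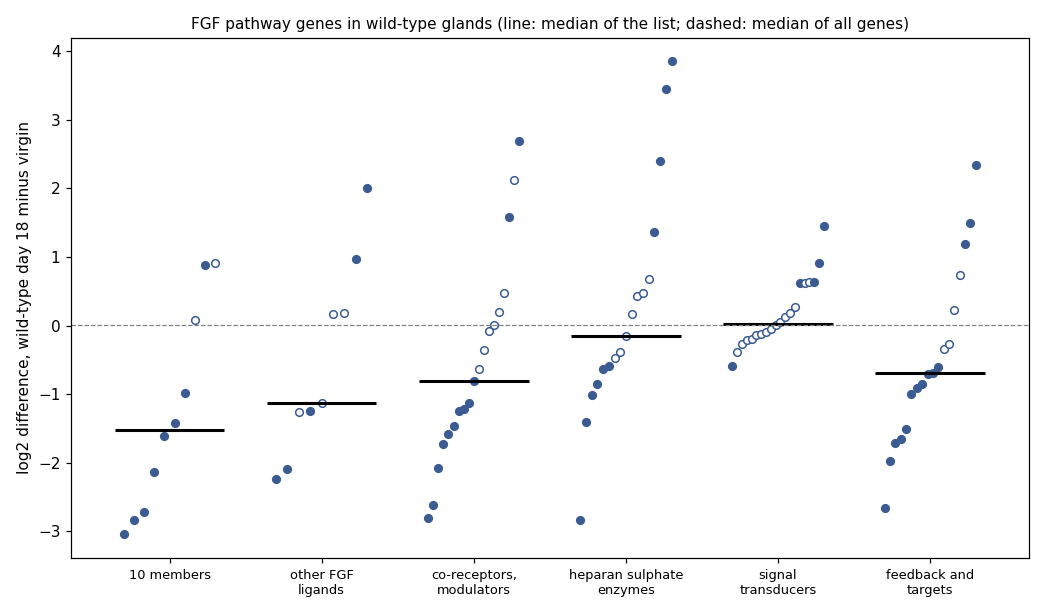
Log2 difference between wild-type day-18 and virgin glands for the 10 members and the tested genes of 5 FGF pathway lists; each point is 1 gene, filled if its adjusted p is under 0.05, the black line is the median of the list and the dashed line that of all genes (0.01). The members lie lowest (median -1.52), the transducers lie around 0 (median 0.02) and the heparan sulphate genes spread from -2.83 to 3.85. Members and lists were chosen with earlier results of these data known. With spike-in scaling the median of all genes moves to -0.91 and Fgf1 to -0.03.

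The genes whose pattern over all 24 arrays was closest to each member were found by the root mean square difference between gene-centred log2 levels. For Fgf10 these were Ebf2 (0.34), Vegfd (0.37) and Zfhx4 (0.42), against an SD of Fgf10 itself of 1.58. For Fgf2 they were Gata6 (0.43), Car8 (0.45) and Enpep (0.46), and for Fgf18 Cadm3 (0.40), Osr2 (0.48) and Ildr2 (0.49). For Fgf7 they were Tnfsf9 (0.32), Fgf9 (0.32) and Pnp2 (0.35). Their own wild-type stage differences were -1.70, -2.24 (for Fgf9 a fitted value, not a measured size) and -2.15, so this likeness includes a stage difference of the same direction.

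For Fgfr1 the nearest were Fbxl5, Btd and Peak1 (each 0.18), for Fgfr2 Ccdc68 (0.41), Fbxo2 (0.44) and Cdc14a (0.45), and for Fgfr3 Epha2 (0.22), Eva1a (0.28) and Mall (0.28). For Fgfr4 the nearest were the muscle sodium channel gene Scn4a (0.54), Gm5860 (0.563) and Gm15816 (0.575). For Fgf1 they were Naxd (0.17), Rnf167 (0.17) and Zfyve19 (0.21), and for Fgfbp3 Dph7 (0.18), Zbed3 (0.19) and Adat2 (0.20).

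Since Fgf7 and Fgf10 were both lower at day 18, their upstream sequences are shown, 250 bases before the start of the gene on the gene's strand, from RefSeq on GRCm38.p6. Fgf7 is at chr2:126034408-126034657 and Fgf10 at chr13:118714449-118714698, both on the plus strand. Capitals mark matches on either strand to the motifs searched.
Fgf7 upstream: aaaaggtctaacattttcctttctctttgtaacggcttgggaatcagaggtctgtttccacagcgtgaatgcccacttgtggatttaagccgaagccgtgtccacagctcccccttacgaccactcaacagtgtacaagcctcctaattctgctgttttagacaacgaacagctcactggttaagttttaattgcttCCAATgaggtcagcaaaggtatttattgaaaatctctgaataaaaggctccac
Fgf10 upstream: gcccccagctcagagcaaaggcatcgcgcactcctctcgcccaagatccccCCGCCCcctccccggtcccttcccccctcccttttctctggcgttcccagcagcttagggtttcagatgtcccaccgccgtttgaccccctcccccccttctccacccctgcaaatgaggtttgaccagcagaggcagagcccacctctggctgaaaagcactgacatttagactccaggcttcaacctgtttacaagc
The motifs searched in windows of 250 bases before to 50 after the start were the GC box GGGCGG, found in 35.66% of 32851 such windows, and the CCAAT box CCAAT, found in 37.41%. The TATA box letters TATAAA were found in 13.62%, and the palindrome known for STAT factors, TTCNNNGAA, in 8.298%. Fgf7 had 1 match to the CCAAT box and Fgf10 had 1 to the GC box. The letters TTCNNNGAA were in 0 of the 9 windows found for 8 of the 10 members, which says only that these letters are not in these windows.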

How the data were processed

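RNA of 24 mouse mammary glands was measured on 1-colour arrays, 8 per slide. Per the file headers, the authors extracted the spots with Agilent Feature Extraction 12.0.3.2. The intensity used is the deposited processed signal of each spot, from which the software removed background and spatial trend; arrays were not scaled to each other. The values in the deposited series matrix were log10 of these signals (smallest correlation 0.999985) and served only for that comparison. The labels give polyA RNA as the molecule, whereas their labelling protocol started from total RNA.

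The deposited signals were taken to log2, without outlier spots, averaged over spots of a probe and centred on the 75th percentile per array. Probes passed (35117 of 56605) where 80% or more of the arrays in any group were well above background. The brightest kept probe stands for a gene. Genes were named through RefSeq accessions or symbols, and 12051 probes kept the name in the file. limma 3.58.1 in R 4.3.3 fitted 1 mean per group to all 24 arrays (20 residual degrees of freedom, 162 missing values), with two-sided tests and Benjamini-Hochberg adjustment over 22382 genes, or over 35117 probes for probe values. Fold changes are 2 to the power of the log2 difference. The procedure was tested on simulated data. The number of arrays limits the precision, and no non-control spot was saturated. Per the labels each animal is separate. All 10 members were named whatever their values. The pathway genes named are the 5 of each list with the smallest p in the wild-type stage comparison, with Kl added beside Klb. The 3 nearest genes by likeness were also named. Members and lists were chosen with earlier results of these data known. Alternatives covered scaling, background correction, filters, the probe rule, slide, array weights, the samples fitted and left-out arrays.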

Additional observations from a re-analysis of the deposited data

Results flagged for a closer look

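Each member's values in each of the 4 groups were checked for a single array far from the others, by the gap to its nearest neighbour as a share of the range (Dixon's 95% critical value). Of 40 sets 5 stood out, and chance alone gives about 1 in 20. Knock-in virgin 376, the array with the high negative-control signal, had the lowest Fgf1 (-0.40), Fgf10 (-0.0862) and Fgfr1 (2.49) of its group. Wild-type virgin 320, the array with high skeletal muscle markers, had the highest Fgfr4 of its group (-2.99). Wild-type day-18 mouse 233 had the lowest Fgfbp3 (-2.92). The part of background signal or of muscle in these values was not tested.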

How the results depend on the processing

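No paired analysis was possible because the animal numbers in the labels differ between all groups. The calls of Fgf2, Fgf7, Fgf10, Fgf18 and Fgfr2 between stages held under every alternative that gave a value, in both genotypes; Fgf2 has none under the filter of well above background on every array, which left 9 members and 7 calls. Leaving out each array in turn changed no stage call of a member in 240 values per comparison. No alternative gave a genotype call among the members, although 20 (virgin) and 7 (day 18) of 109 uncalled values changed sign. Median scaling left 5 member calls in each genotype in place of 8, and 5316 (wild type) and 5068 (knock-in) calls over all genes in place of 9357 and 9658. Over all genes spike-in scaling gave 14807 wild-type calls and array weights 14071; in limma the genotype comparison in virgins gave 21 calls with array weights and 1 without mice 376, 198 and 184, and that at day 18 gave 1 without them, none of them a member. With spike-in scaling Fgf1 was -0.0316 in wild-type and -0.0955 in knock-in glands, and Fgfbp3 in wild-type glands was -0.84 (adjusted p 0.0039 in limma) and in knock-in glands -1.11 (adjusted p 4.14e-04), so that it passed in both. Only 1142 of the wild-type calls were then higher and 13665 lower (knock-in 1372 and 11644), and normexp correction moved the share of higher calls to 59.5% and 61.5% from 50.1% and 53.0%. Fgf1 also missed the threshold with quantile normalization and median scaling, and in knock-in glands with the mean of its probes (0.25) and with only those groups fitted. Fgfr3 missed it in both genotypes with quantile normalization (-0.89 and -0.28), median scaling (-0.81 and -0.55) and the mean of its probes (-0.89 and -0.71), and Fgfr1 with median scaling. Fgfr4 passed it in wild-type glands with array weights (0.93, adjusted p 0.045) and with only those groups fitted. Beyond what each alternative changes by construction, the causes were not tested. Dim probes, those of Fgf2, Fgfr4 and the second probes of Fgf10 and Fgfr2, limit how far a fall can be measured.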
